A study of Physcomitrium patens with 5 samples.

Results

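Gametophores are the leafy shoots of mosses, and those of Physcomitrium patens can lose water and take it up again. The comparison described here sets moderately dehydrated gametophores against hydrated ones by their DNA methylation. It covers every gene for which the authors' deposited table gives a differentially methylated region between these states, which is 38 of the 225 genes in the table, or 16.9%. A region linked to several neighbouring genes was counted once, and the 38 genes then held 30 of the 224 distinct regions of the table, on 29 scaffolds. Plants were grown on BCD medium, and the labels give no strain, genotype, degree of water loss or time for either state. They call the dried state mild in one place and moderate in another. There was 1 library per state, made from genomic DNA by bisulfite sequencing, in which unmethylated cytosines are read as thymines and methylated ones are kept as cytosines. The differences are therefore described and not tested.

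In plants, methyl groups are placed on cytosines in CG, CHG and CHH contexts (H is any base but G) by different methyltransferases. In this moss, methylation lies mainly on transposable elements and other repeats, and the bodies of expressed genes carry little of it. Methylation near a promoter is often found together with low transcription, but the cytosine context and the expression of the genes listed here were not analysed. A level is an average over all cells of a sample, so a shift in every cell and a shift in some of the cells cannot be told apart.

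Each entry of the table names a part of the gene, the start and end of the region, a log2 methylation ratio and a direction. The gene parts are the 2 kb upstream of the gene, its body and the 2 kb downstream. A positive ratio is read as higher methylation after moderate dehydration than in the hydrated library. This reading rests on the levels behind the ratios. All 30 ratios equalled a fraction of whole-percent levels, where a level of 0 is represented by 0.1%, within a relative tolerance of 1e-09. The levels themselves are not given, so all levels below are inferred from the ratios on the premise of whole percents. For the region on scaffold 84 that has the same ends in the full rehydration comparison, 2 hydrated levels give both ratios if the hydrated library is the denominator, and 0 do if it is the numerator. It is the only region of moderate dehydration with identical ends in another comparison. The table holds 1 more such region, on scaffold 439 in partial and full rehydration, where the counts are 6 and 0. The reading thus rests on 2 regions. The 3 other regions of moderate dehydration that overlap one of another state differ from it in their ends, so their hydrated levels need not be the same. For these, the counts of shared hydrated levels with the hydrated library as denominator and as numerator were 2 and 3 (Pp1s12_28V6), 2 and 1 (Pp1s154_64V6) and 3 and 0 (Pp1s210_4V6). Neither the depth of the libraries nor the coverage of the regions is given in the sources used here, so no single level has an error.

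Of the 30 regions, 21 were higher after moderate dehydration and 9 were lower. This was 70.0% higher (95% Clopper-Pearson interval 50.6 to 85.3, for counting error over listed regions only). Regions from 1 pair of libraries are not independent, which the interval does not take into account. With overlapping regions merged it ran from 49.2 to 84.7. The share higher was 54.5% in severe dehydration, 12.5% in partial rehydration and 56.1% in full rehydration. These comparisons share the hydrated library, and the difference between them was not tested. The higher regions of moderate dehydration lay mostly close to the smallest size listed. Their log2 ratios in the authors' deposited table ran from 1.03 to 3.84 with a median of 1.21, and 13 of the 21 were under 1.5. The lower regions reached further from 0, with a median of -2.46 in the authors' deposited table, and 2 of the 9 were under 1.5 in size. Without the 2 regions with a level inferred at 0, 7 lower regions remained. They ran from -3.46 to -1.10 in the authors' deposited table, with a median of -1.84. Counting only regions of at least 1.5 in size left 8 higher and 7 lower. The excess of higher regions was thus made up of regions with ratios near the smallest ones listed.

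**Figure D1:**
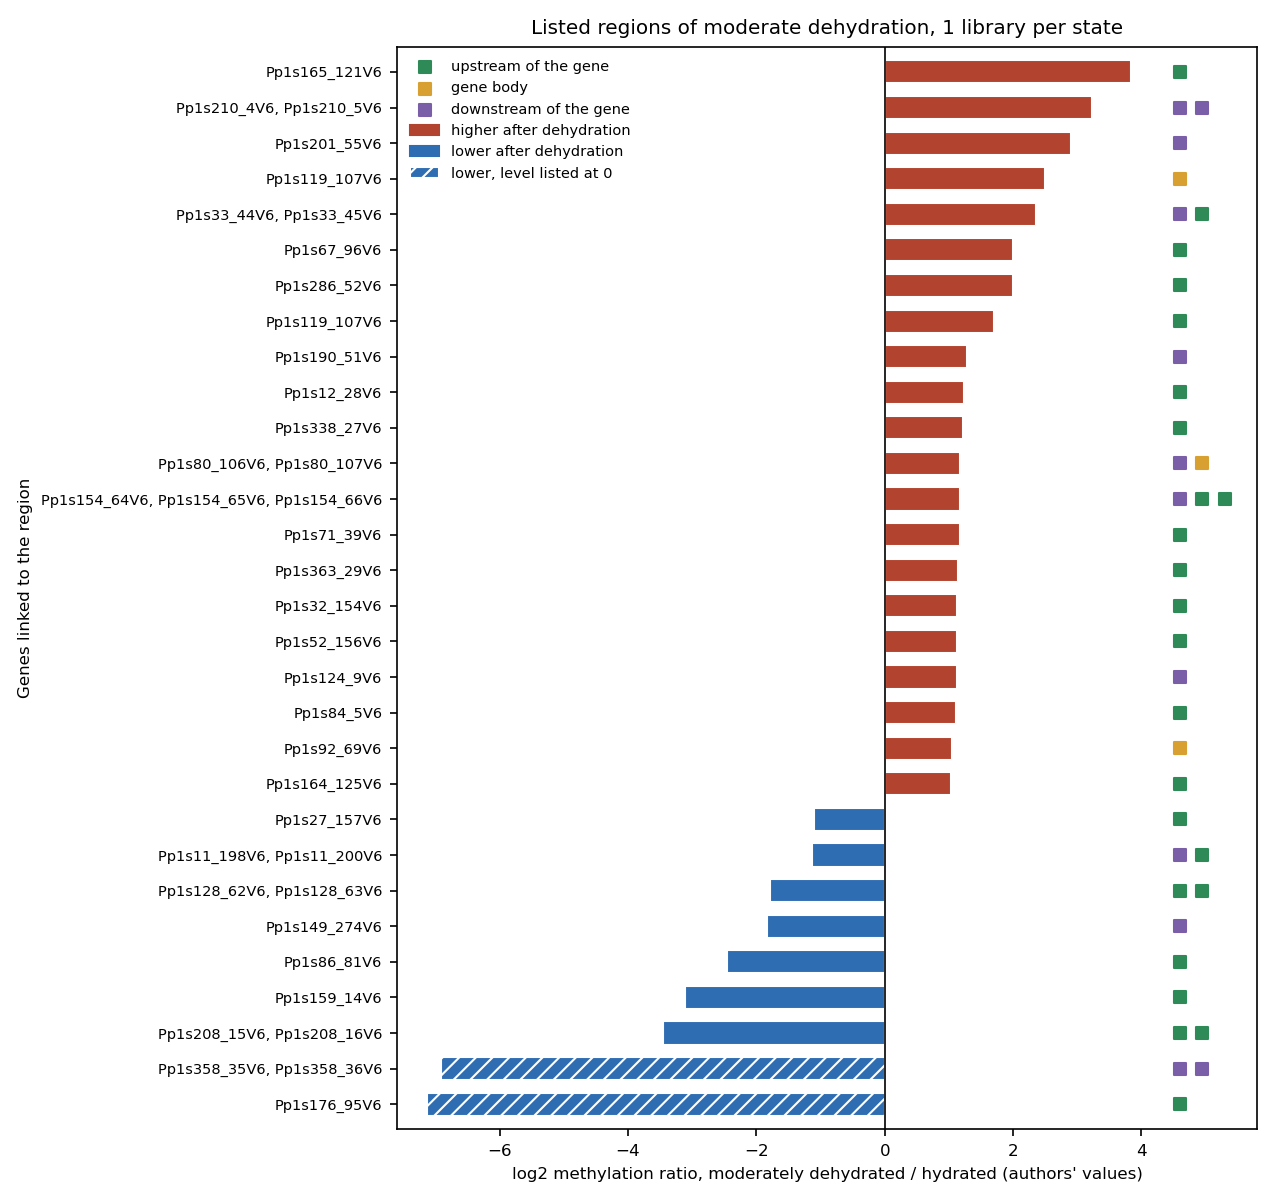
Log2 methylation ratio (horizontal axis, the authors' values) of each of the 30 regions, named by the linked genes, with squares for the gene part each gene has the region in, in the order of the names. The 21 higher regions run from 1.03 to 3.84, and the lower ones down to -3.46. The exceptions are the 2 hatched regions, whose level after dehydration was inferred at 0 from the ratio.

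By gene part, 24 of the 39 links between a gene and a region lay upstream, 12 downstream and 3 in the body. This was 61.5% upstream (95% Clopper-Pearson interval 44.6 to 76.6, for counting error over links only). The upstream share was 43.8% in severe dehydration, 38.8% in partial rehydration and 39.5% in full rehydration. These comparisons share the hydrated library, and the difference between them was not tested. Links that share a region are not independent, which the interval does not take into account. All 3 body links were higher, at the ribosomal protein S4e gene, a dynein heavy chain gene and a gene with no annotation. Upstream, 15 links were higher and 9 lower, and downstream 8 were higher and 4 lower. Over all 39 links, 66.7% were higher, and 3 body links are too few to set that part apart. Genes with no annotation had 13 of their 16 links upstream (81.2%), and annotated genes 11 of 23 (47.8%).

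**Figure D2:**
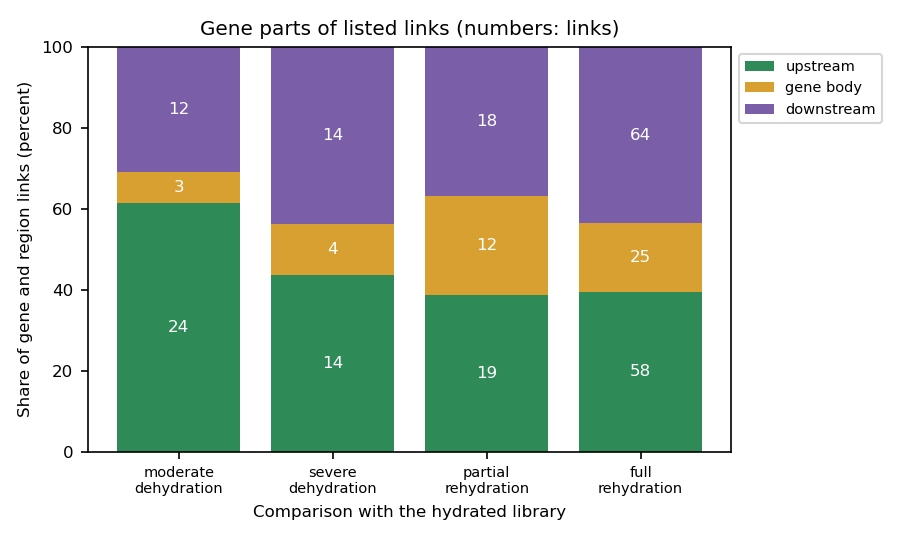
Share of gene and region links (vertical axis, percent) in the upstream flank, the body and the downstream flank for each comparison with the hydrated library, with the number of links printed in each block. Moderate dehydration has 24 upstream, 3 body and 12 downstream links.

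Of the 38 genes, 22 had an orthology definition or an ontology term and 16 had neither. Among the annotated genes 15 were higher and 7 lower, or 68.2% higher, beside 65.8% of all 38 genes. Gene names below follow the orthology definitions in the table. For 3 of the 16 genes with a definition, those named RPB1, ethylene-responsive transcription factor 2 and nucleobase symporter, the definition ends in a further orthology identifier, so which protein each of them encodes stays uncertain.

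Genes for making proteins were higher at every listed region. The gene for small subunit ribosomal protein S4e (Pp1s119_107V6) was the only one of the 38 with more than 1 region. In the authors' deposited table its upstream region on scaffold 119 (908104 to 908410) was at 1.70. That ratio fits 7 pairs of levels, from 4% hydrated and 13% dehydrated to 28% and 91%. The difference upstream could thus be as small as 9 percentage points. The body region of the gene (908306 to 908530) stood at 2.50 in the authors' deposited table, and both regions share 105 bases. Of the 5 pairs of levels that give the ratio of the body region, the lowest was 3% hydrated and 17% dehydrated, and the highest 15% and 85%. The gene for eIF-3 subunit 1 (Pp1s201_55V6), part of the factor that loads ribosomes onto mRNA, had its region downstream on scaffold 201 (256903 to 257144), at 2.91 in the authors' deposited table. The hydrated level there was between 2% and 12% and the dehydrated level between 15% and 90%. The gene for a ribosome biogenesis ATPase (Pp1s12_28V6), an enzyme of ribosome assembly, was 1.24 upstream in the authors' deposited table. The possible levels of that region were 14% and 33%, 28% and 66%, or 42% and 99%, in the hydrated and the dehydrated library. The keyword list for ribosome and translation matched 10 genes of the whole table, and 3 of these (30.0%) were listed in moderate dehydration, beside 17.3% of all annotated genes, with a median log2 ratio of 2.10 over their 4 regions. All 3 were higher, beside 68.2% of the annotated genes here, and 3 genes are too few to set the list apart.

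Genes for making and processing RNA lay on both sides. The gene named RPB1 (Pp1s208_15V6) would by that name encode the catalytic subunit of RNA polymerase II. It shared an upstream region on scaffold 208 (43335 to 43553) with a gene with no annotation, Pp1s208_16V6. Its log2 ratio in the authors' deposited table was -3.46, the lowest among regions with both levels above 0. An 11-fold difference at this region leaves 9 pairs of levels, from 11% hydrated and 1% dehydrated to 99% and 9%. The methylation left after drying was thus at most 9%, while the hydrated level is open over a wide range. DDX42 (Pp1s358_35V6) is an RNA helicase that works with the spliceosome. The region downstream of it, on scaffold 358 (214143 to 214344), was also downstream of the unannotated gene Pp1s358_36V6. The inferred level of this region was 12% in hydrated plants and 0 after moderate dehydration. On the higher side, the gene for small nuclear ribonucleoprotein D3 (Pp1s33_44V6), a core protein of spliceosomal particles, had a region downstream on scaffold 33 (306367 to 306576), at 2.36 in the authors' deposited table. The same region is upstream of its unannotated neighbour Pp1s33_45V6. Levels there were either 8% hydrated and 41% dehydrated or 16% and 82%, so the libraries were at least 33 percentage points apart. The list for RNA polymerase, splicing and RNA processing held these 3 genes by definition, 1 higher and 2 lower. The list also matched the ribosomal protein S4e gene, through its ontology term for a ribonucleoprotein complex. It thus matched 4 of its 13 table genes here (30.8%), beside 17.3% of all annotated genes. Of these 4, 2 were higher and 2 lower, beside 68.2% higher among the annotated genes here. So few genes do not set the list apart.

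The highest ratio shared by neighbouring genes was at genes with kinase terms. A pair of neighbouring genes with ontology terms for protein kinase activity, Pp1s210_4V6 and Pp1s210_5V6, had in common a region downstream of each, on scaffold 210 (25919 to 26272), at 3.22 in the authors' deposited table. Its levels were 3% hydrated and 28% dehydrated, 6% and 56%, or 9% and 84%. The hydrated library was thus below 10% and the dehydrated one at least 25 percentage points above it. The ribosome biogenesis ATPase gene was the third match of the kinase and phosphatase list, through a hexokinase term in its annotation, and no gene here matched this list by orthology definition. The list thus had 3 of its 22 table genes here (13.6%), near the 17.3% of all annotated genes. The gene for a G protein alpha subunit (Pp1s84_5V6), which passes signals on from receptors, stood at 1.11 upstream in the authors' deposited table, on scaffold 84 (35988 to 36218). The gene named ethylene-responsive transcription factor 2 (Pp1s11_198V6) belongs by that name to a family of plant DNA-binding proteins with roles in hormone and stress responses. It had a lower region downstream on scaffold 11 (1711185 to 1711482), at -1.14 in the authors' deposited table. Its hydrated level could be anything from 11% to 99%, since 9 pairs give this ratio, and the difference could be as small as 6 percentage points. The same region is upstream of Pp1s11_200V6, which has only a term for nucleic acid binding.

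Matches of the keyword list for transport and ATPases lay on both sides, the lower one being an RNA helicase gene. One region on scaffold 154 (380646 to 381013) was downstream of the gene named nucleobase symporter (Pp1s154_64V6). The same region was upstream of the unannotated gene Pp1s154_65V6 and of the F-type ATPase beta subunit gene (Pp1s154_66V6), the catalytic subunit of ATP synthase. It was the only region linked to 3 genes, and its log2 ratio in the authors' deposited table was 1.17. With 11 possible pairs, its levels ran from 4% and 9% up to 44% and 99% for the hydrated and the dehydrated library, and the difference in points is hardly limited. The gene for lipoic acid synthetase (Pp1s190_51V6), which makes the lipoyl cofactor of the pyruvate dehydrogenase complex, was at 1.29 downstream in the authors' deposited table. Here the levels were 16% hydrated and 39% dehydrated or 32% and 78%. A gene with terms for cation transport and a membrane location (Pp1s52_156V6) stood at 1.13 upstream in the authors' deposited table, with levels of 16% and 35% or 32% and 70%. The list for transport and ATPases matched 4 of its 11 table genes here, or 36.4% beside 17.3% of all annotated genes. The matches were the F-type ATPase gene, Pp1s52_156V6, the ribosome biogenesis ATPase gene (Pp1s12_28V6) and DDX42 (Pp1s358_35V6). The gene named nucleobase symporter was not a match, so the share is not one of transport genes alone. Of the 4 matches, 3 were higher and 1 lower, beside 68.2% higher among all annotated genes here, with a median log2 ratio of 1.15. The lower match was DDX42, through a term for ATPase activity.

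The lower annotated genes also included a lipid enzyme and a membrane protein. Phosphatidylserine synthase 2 (Pp1s159_14V6), an enzyme that makes a phospholipid of cell membranes, had an upstream region on scaffold 159 (98500 to 98831) at -3.12 in the authors' deposited table. The levels were 26% hydrated and 3% dehydrated, 52% and 6%, or 78% and 9%. The gene defined as a benzodiazepine receptor (Pp1s149_274V6) belongs to the family of membrane translocator proteins, whose member in Arabidopsis is induced by abscisic acid and osmotic stress. Its downstream region on scaffold 149 (913084 to 913352) was at -1.84 in the authors' deposited table. It went with levels of 43% hydrated and 12% dehydrated or of 86% and 24%, at least 31 points apart in either case.

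The other annotated genes belonged to separate groups. RAD23 (Pp1s286_52V6), which acts in nucleotide excision repair and carries ubiquitylated proteins to the proteasome, was 4-fold higher upstream, on scaffold 286 (382308 to 382540), by the authors' deposited table. This ratio fits 25 pairs of levels, from 1% and 4% to 25% and 100%, so that the difference could be as small as 3 percentage points. The gene for alpha-1,4-galacturonosyltransferase (Pp1s80_106V6), which builds the backbone of the cell wall polysaccharide pectin, was at 1.18 downstream in the authors' deposited table. The same region lies in the body of the unannotated gene Pp1s80_107V6, with levels of 19% hydrated and 43% dehydrated or 38% and 86%. A cytosolic dynein heavy chain gene (Pp1s92_69V6), a motor on microtubules, had a body region at 1.05 in the authors' deposited table. A gene with a term for a membrane-bounded organelle (Pp1s165_121V6) had the highest ratio of the comparison, at 3.84 upstream on scaffold 165 (885916 to 886274) in the authors' deposited table. Its level was 3% or 6% in the hydrated library and 43% or 86% after moderate dehydration, so the libraries were at least 40 points apart. At the other end, a gene with a term for a cytoplasmic vesicle (Pp1s176_95V6) had an upstream region on scaffold 176 (649411 to 649616). The inferred levels of this region were 14% hydrated and 0 dehydrated. No fold is given for the regions with a level inferred at 0.

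Most other keyword lists had 0 or 1 member. The list for water deficit and abscisic acid matched 1 gene of the whole table, redox and detoxification 8, cell wall and phenylpropanoids 3 and resistance proteins 4, and 0 of these matches were listed in moderate dehydration. With 17.3% of annotated genes listed here, 0 members in lists of this size is not a result about these groups. The galacturonosyltransferase gene described above makes a cell wall component but holds none of the keywords of the cell wall list. Transposable elements had 0 matches in the whole table. The list for ubiquitin and proteolysis had 1 member of 6, and that for DNA repair and chromatin 1 of 5, which was RAD23 in each case. The list for transcription factors had 1 of 2, the ethylene-responsive gene, and lipid and membrane 1 of 3, phosphatidylserine synthase 2. The photosynthesis list held 1 of 4, the F-type ATPase gene, through a chloroplast term. Cytoskeleton and trafficking held 3 of 16, of which the dynein gene alone matched by definition.

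Of the 16 genes with no annotation, 10 were higher and 6 lower. The highest was Pp1s33_45V6, beside the ribonucleoprotein D3 gene. It was followed by Pp1s67_96V6, which had a 4-fold higher upstream level in the authors' deposited table, over 733 bases. As for RAD23, 25 pairs of levels fit this ratio, and the difference could be as small as 3 percentage points. Next came Pp1s338_27V6, with inferred upstream levels of 22% in hydrated and 51% in moderately dehydrated plants. After it came Pp1s80_107V6, and Pp1s71_39V6 at 1.17 in the authors' deposited table, the same ratio as Pp1s154_65V6. Among the lower genes, Pp1s358_36V6 and Pp1s208_16V6 shared the regions of DDX42 and RPB1. Pp1s86_81V6 stood at -2.46 upstream in the authors' deposited table. Pp1s128_62V6 and Pp1s128_63V6 shared a region upstream of both, on scaffold 128 (480598 to 481033), with inferred levels of 52% in hydrated and 15% in moderately dehydrated plants. Upstream of Pp1s27_157V6, the inferred levels were 77% in hydrated and 36% in moderately dehydrated plants, and upstream of Pp1s164_125V6 they were 25% and 51%. These last 3 regions and that of Pp1s338_27V6 are the 4 with both levels above 0 for which a single whole-percent pair gives the ratio. All of them belong to genes with no annotation. Pp1s27_157V6 and Pp1s164_125V6 were named after their values were seen. The other 3 genes, Pp1s124_9V6, Pp1s32_154V6 and Pp1s363_29V6, had log2 ratios of 1.13, 1.13 and 1.14, as the authors' deposited table lists them, and are given to complete the list.

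The levels show how far a ratio reflects a large difference in methylation. A single pair of levels fitted 6 regions, 2 or 3 pairs fitted 12, and more than 3 fitted the other 12. In 12 regions, 8 higher and 4 lower, the libraries were at least 20 percentage points apart in every pair. In 5 regions, 2 higher and 3 lower, they were at least 30 points apart. In 8 regions, 6 higher and 2 lower, some pair put the libraries less than 10 points apart. Among them were those of RAD23, the F-type ATPase gene, the ethylene-responsive gene and Pp1s67_96V6, and the upstream region of the ribosomal protein S4e gene. A pair of small levels and a pair of large ones cannot be told apart in these regions.

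**Figure D3:**
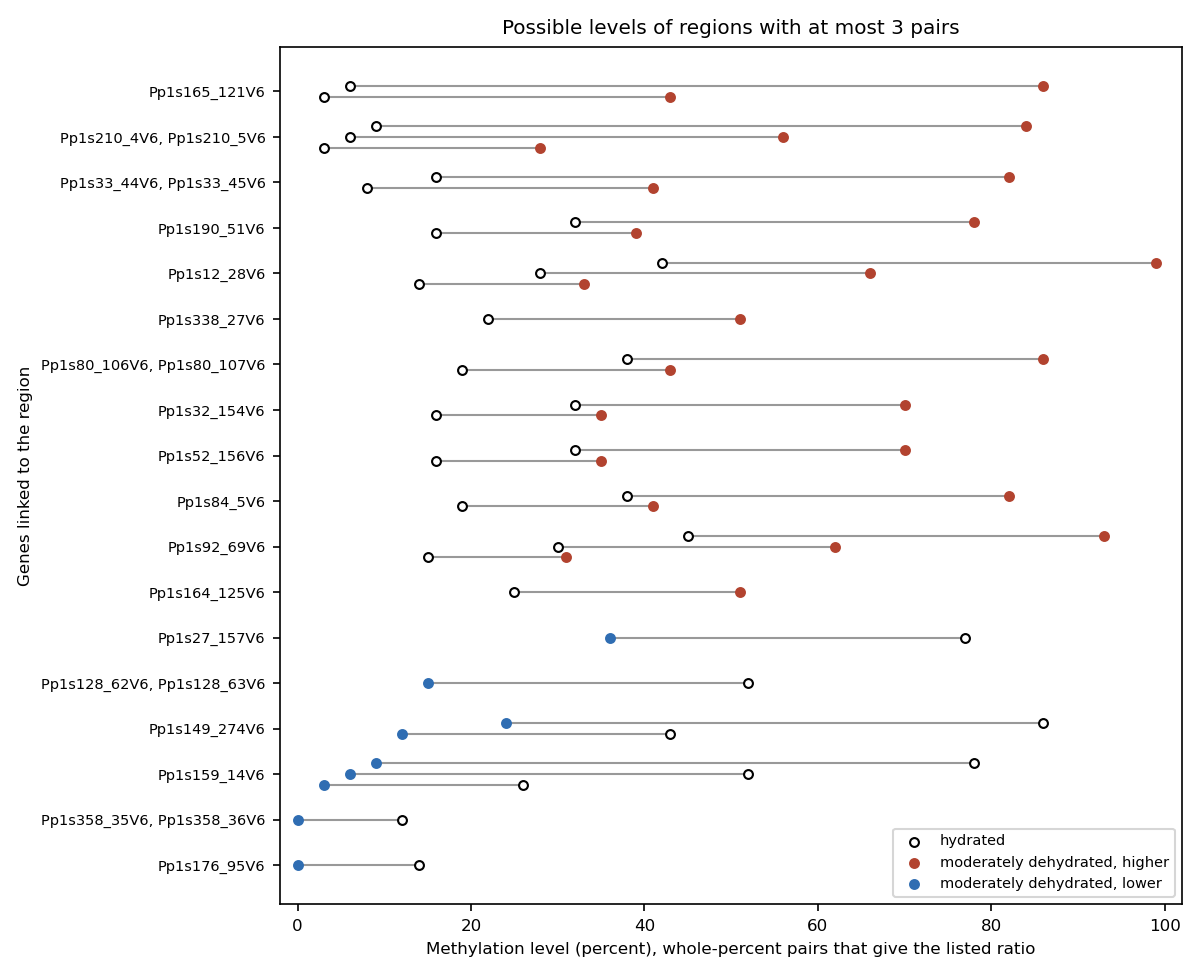
Pairs of whole-percent methylation levels (horizontal axis, percent) that give the listed ratio, for the 18 regions with at most 3 pairs, with open circles for the hydrated library and filled circles for the moderately dehydrated one. Each line is a possible pair, and those of Pp1s165_121V6 are 3% and 43% or 6% and 86%.

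Regions were short, with the end 201 to 771 bases after the start and a median of 301.5 bases. The median was 346 bases for the higher regions and 268 for the lower ones. The 2 regions with a level inferred at 0 were the shortest, at 201 and 205 bases. Over the 30 regions, Spearman's rho between length and the size of the log2 ratio was -0.31, and over the 28 with both levels above 0 it was -0.15. This is a weak relation across regions that come from the same pair of libraries, and it rests in part on the regions inferred at 0.

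**Figure D4:**
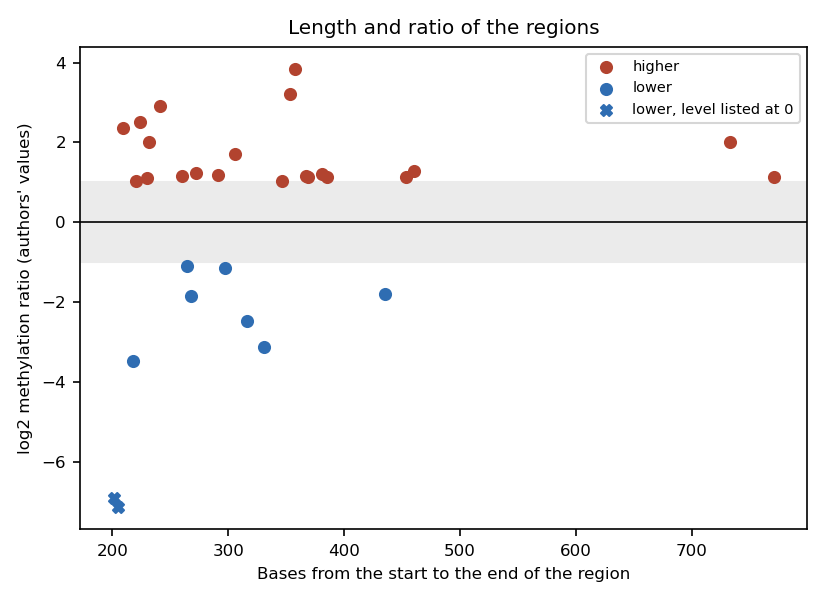
Log2 methylation ratio (vertical axis, the authors' values) against the number of bases from start to end (horizontal axis) for the 30 regions, with the grey band marking the ratios between -1 and 1 that the table does not list. The 2 crosses at 201 and 205 bases are the regions with a level inferred at 0 from the ratio.

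Of the 30 regions, 22 were linked to 1 gene, 7 to 2 genes and 1 to 3 genes, so that 17 of the 38 genes shared a region with a neighbour. Of the 8 shared regions, 2 lay upstream of both genes, at RPB1 and Pp1s208_16V6 and at Pp1s128_62V6 and Pp1s128_63V6. A further 2 lay downstream of both, at the kinase genes and at DDX42 and its neighbour. For the other 4, the region was in different parts of its genes. The table does not say to which gene a shared region belongs, and genes with a shared region have a single value between them.

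Of the 38 genes, 31 were listed in moderate dehydration alone and 7 also in another state, 3 in severe dehydration, 4 in full rehydration and 0 in partial rehydration. The share listed in a single comparison was 81.6% of the 38 genes and 92.9% of all 225 genes of the table, so being listed here alone is nothing particular to moderate dehydration. The 7 genes hold 4 regions, each of which overlaps the region listed in the other state. The kinase genes Pp1s210_4V6 and Pp1s210_5V6 stood at 3.22 in moderate and 2.66 in severe dehydration in the authors' deposited table. For the ribosome biogenesis ATPase gene Pp1s12_28V6, the authors' deposited table gave 1.24 and 1.58 for regions with the same start. The region at Pp1s154_64V6, Pp1s154_65V6 and Pp1s154_66V6 was at 1.17 in moderate dehydration and 1.14 in full rehydration in the authors' deposited table. At the G protein alpha gene Pp1s84_5V6 the ends were identical, and the ratios were 1.11 in moderate dehydration and 1.24 in full rehydration in the authors' deposited table. A hydrated level of 19% goes there with 41% after moderate dehydration and 45% after full rehydration, and a hydrated level of 38% with 82% and 90%. All of these comparisons use the same hydrated library, so the values of the other states are not independent of those described here. Outside these overlaps, the nearest region of another comparison on the same scaffold was 24683 bases away.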

How the data were processed

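The only file was the authors' deposited table, which holds comparisons they made. Its cells hold, per the file headers, gene part, start, end, methylation ratio and direction. The log2 scale of these deposited ratios was inferred from the values. No aligner, region caller, threshold, genome build, annotation release or depth is given in the sources used here. The precision of single values is therefore unknown. No genome was used here, so no sequence is shown. The reference gene table matched 0 of the 38 identifiers.

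From the cells, regions with the same scaffold, start and end were counted once per comparison. Level pairs were found by comparing each ratio with all fractions of whole percents (0 taken as 0.1%), checked on simulated data. Shares have Clopper-Pearson intervals (95%). Python 3.11.15, pandas 2.3.3, numpy 2.4.6 and scipy 1.17.1 were used. There were no replicates and no tests.

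The members, the 15 keyword lists and the naming rule (every annotated gene; of the unannotated, the 5 highest and 5 lowest and any in another comparison) were chosen with earlier results of these data known. The recovery of levels and the comparison of lengths were added after the values were seen. Alternatives counted every entry, merged overlapping regions, required a size of 1.5, or kept annotated genes.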

Additional observations from a re-analysis of the deposited data

How the results depend on the processing

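With a minimum log2 size of 1.5, the number of regions was 15 and their median size was 2.50, against 30 regions and 1.49 as listed, which follows from the stricter minimum. The share of higher regions was 53.3% there, against 70.0% as listed, so the excess of higher regions depends on the smallest ratios listed. Counting every gene and region entry, merging the overlapping regions at the ribosomal protein S4e gene and keeping annotated genes gave 66.7%, 69.0% and 70.0% higher. The upstream share ranged from 47.8% with annotated genes only to 61.8% with each region counted once per gene part. No paired analysis was possible because each state had 1 library. Depth is unknown, so no region can be set against sampling error, and how many would recur in another library is unknown.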

Other observations

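The 30 regions carried 27 distinct ratios, and 3 ratios were each carried by 2 regions on different scaffolds. The cation transport gene Pp1s52_156V6 and the unannotated gene Pp1s32_154V6, chosen after its value was seen, had the same ratio, 1.13 in the authors' deposited table, with levels of 16% and 35% or 32% and 70%. RAD23 (Pp1s286_52V6) and Pp1s67_96V6 shared a ratio of 4-fold, and Pp1s71_39V6 shared its ratio with the region at the F-type ATPase gene, in the authors' deposited table.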
